A study of Mus musculus with 6 samples.

Results

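The genes described here are enzymes that write or erase marks on histones and DNA, and the motor and accessory subunits of chromatin remodelling complexes, in kidney RNA of C57BL/6 mice at postnatal day 21. They were chosen by name: autosomal protein-coding genes whose symbol starts with Kdm, Kmt, Kat, Hdac, Sirt, Setd, Smarc, Arid, Chd, Dnmt or Tet followed by a number, or by a letter and a number. Of 95 such genes, 56 could be read from the deposited counts, and 53 of these had at least 10 counts in at least 3 libraries. Those 53 are the members, out of 9519 genes read and 5246 tested. The other 3 readable genes were Arid3c and Smarcd3, which had few counts, and Dnmt3c, which had 0 in all 6 libraries. The remaining 39, among them Kdm6b, Kat2a, Hdac2, Hdac3, Sirt1, Smarca5, Smarcb1, Tet2 and Tet3, are not analysed here.

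The RNA was extracted from kidney, and 3 libraries were labelled healthy and 3 acute renal failure (ARF), a rapid loss of kidney function. All 6 share strain, tissue and age. The labels name no agent, allele or operation, and the titles call the groups control and treat. The names of the deposited files call the same groups WT and mutant, and no gene is given there, so whether the groups differ in genotype, in treatment or in both is not known here. Whether each library is a different mouse is not stated, and the p-values reflect only how far these libraries spread, which may be technical. Below, libraries are named by the diagnosis in their label, as healthy-labelled or ARF-labelled. Their totals ran from 2873370 to 6191479 counts.

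Chromatin packs DNA around histone proteins, and whether a gene can be read depends in part on chemical marks on the histone tails and on cytosine. Methyltransferases and acetyltransferases write these marks, while demethylases, deacetylases and TET dioxygenases remove them. Remodelers of the SWI/SNF, ISWI and CHD families use ATP to slide, evict or exchange nucleosomes. In the kidney these enzymes are best known from nephron development, where histone deacetylases and DNA methylation are required, and from studies of tubular repair.

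Most deposited rows carried a name other than that of the gene lying under their intervals in GRCm38, so each gene was identified by the exons at those positions. Only 7 members had a row of their own symbol, which were Arid1b, Chd7, Hdac4, Kdm5a, Kmt5c, Setd5 and Smarca2. Kmt2c, for example, was counted in the row named 2900005J15Rik and Chd1l in the rows named Fmo5 and Prkab2. A member was counted over 37 to 10363 exon bases, with a median of 536, or 10.2% of its exon bases. The rows can also cover bases outside its exons, so reads from introns or from beside the gene can be included. Levels are therefore compared between libraries for the same gene and not between genes. CPM here is a count relative to the library total after scaling by the trimmed mean of M-values (TMM), an adjustment for differences in RNA composition.

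As sequence context for the members with the largest changes, the 250 bases before the transcription start are shown for the largest fall and the 2 largest rises among called members with a single entry at the gene start in the RefSeq promoter table (GRCm38.p6). CpG dinucleotides, the substrate of the DNA methyltransferases and TET enzymes and the motif bound by the CXXC domain of Kdm2a and Kdm2b, are in capitals.
Arid5a, plus strand, chr1:36307483-36307732: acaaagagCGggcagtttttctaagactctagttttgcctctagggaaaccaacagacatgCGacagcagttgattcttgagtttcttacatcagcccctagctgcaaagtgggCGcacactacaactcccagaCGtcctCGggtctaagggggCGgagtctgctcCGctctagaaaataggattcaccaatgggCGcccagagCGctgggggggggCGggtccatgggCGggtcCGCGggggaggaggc
Chd1l, minus strand, chr3:97610191-97610440: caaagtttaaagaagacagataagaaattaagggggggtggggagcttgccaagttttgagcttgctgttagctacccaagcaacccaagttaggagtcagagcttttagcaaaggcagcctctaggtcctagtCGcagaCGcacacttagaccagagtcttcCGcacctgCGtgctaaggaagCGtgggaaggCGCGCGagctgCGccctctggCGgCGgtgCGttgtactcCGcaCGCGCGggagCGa
Kmt2c, minus strand, chr5:25498784-25499033: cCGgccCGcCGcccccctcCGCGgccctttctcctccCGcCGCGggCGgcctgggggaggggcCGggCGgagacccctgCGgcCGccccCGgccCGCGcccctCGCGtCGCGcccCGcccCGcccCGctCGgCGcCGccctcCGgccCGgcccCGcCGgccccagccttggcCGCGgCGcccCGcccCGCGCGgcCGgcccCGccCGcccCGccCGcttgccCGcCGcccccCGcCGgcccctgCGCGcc
They hold 13, 17 and 48 CpG, and that of Kmt2c has the most of all member promoters. A promoter within 500 bases of the annotated gene start was found for 29 members, with 33 promoters in all. These had a median of 21 CpG per 250 bases, against 10 over all 18111 promoters placed the same way. The median was 20.5 CpG for the 10 promoters of members that rose (range 11 to 48), 14 for the 4 of members that fell (range 2 to 24) and 21 for the 19 of members that were not called (range 8 to 40). On either strand, TGANTCA, the AP-1 motif, was in 0 of the 33 member promoters and in 6.12% of all. TGACGTCA, the cyclic AMP response element, was in 0 against 2.15%, and the NRF1 motif in 0 against 1.15%. The ETS motif CCGGAAGT was in 1 of 33 (3.03%) against 4.22%, and the E-box CACGTG in 1 of 33 (3.03%) against 7.06%. None of the 5 motifs holds another whole within its letters.

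The comparison asks which of these genes differ with the diagnosis on the label. In the ARF-labelled libraries 17 of the 53 members were higher and 7 lower, by edgeR's quasi-likelihood test at a Benjamini-Hochberg adjusted p under 0.05. The 7 that fell were led by Arid5a, Setd5 and Chd7, and the 17 that rose by Kdm2b, Chd1l, Kmt2c and Kdm1b. The share called was 45.3% for the members, against 50% of all genes tested. By direction it was 32.1% higher against 25.1% of all genes, and 13.2% lower against 24.9%. Fold changes were mostly small: 6 members (11.3%) were called with a change of at least 2-fold, against 25% of all genes. The groups did not overlap in 30 members (56.6%), against 60.2% of all genes. The median log2 fold change of the members was 0.18 and that of all genes 0.01, and the median absolute log2 fold change was 0.35 against 0.53. Without the 4 members that lacked 10 counts in some library (Arid5a, Chd5, Kdm2b and Setd4), 15 of 49 were higher and 6 lower. Of these 4, Arid5a met the count minimum only through the healthy-labelled libraries, and Kdm2b and Setd4 in all libraries of the ARF-labelled group only. With scaling by library totals alone, which moves the median of all genes to 0.19, 27 members were higher (50.9%, against 33.3% of all genes) and 5 lower (9.43%, against 19.3%). The 10 gained were Arid1a, Arid2, Chd3, Chd4, Hdac5, Kdm2a, Kmt2d, Kmt2e, Smarcc2 and Smarce1. Leaving out replicate 3 of the healthy-labelled group gave 10 members higher (18.9%, against 18.4% of all genes), and leaving out replicate 3 of the ARF-labelled group 11 (20.8%, against 21.4%). Among genes with a mean of at least 50 counts, 27.1% of the members were higher, against 27.5% of all genes. The larger share of higher calls among the members was therefore not seen in these fits. It was narrow with the replicate number as a block (22.6% against 21.6%) and wide with no filter on low counts (30.2% against 18.2%). The share of lower calls was smaller among the members than among all genes in each fit named here. With the block it was 11.3% against 22%, and with no filter 13.2% against 16.9%. The difference in shares was not tested.

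**Figure D1:**
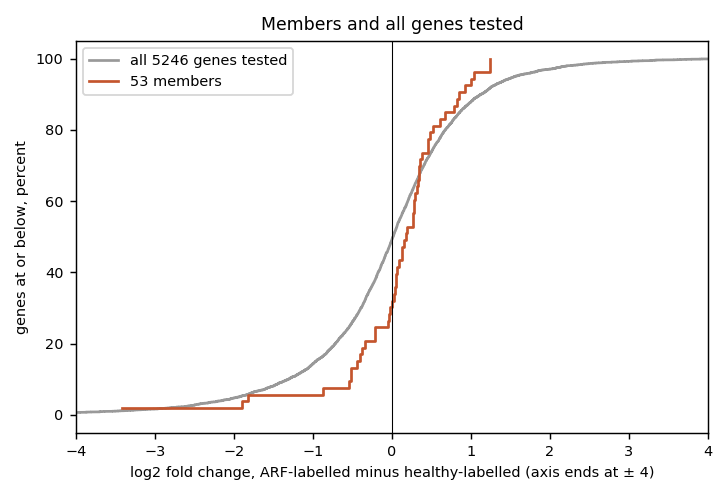
The x axis is the log2 fold change and the y axis the percent of genes at or below it, for the 53 members (orange) and all 5246 genes tested (grey). The members' curve is steeper and lies to the right of the curve of all genes over most of its lower range, with medians of 0.18 and 0.01.

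Of 14 lists of cell type markers, several moved with the groups. Their counts stand beside 25.1% of all genes higher and 24.9% lower. All 9 readable of 14 collecting duct genes were higher in the ARF-labelled libraries, where they summed to 13620 to 16330 CPM against 4711 to 5602 CPM. Of 8 readable of 18 proximal tubule genes 7 were lower (3185 to 4363 CPM against 7429 to 11740 CPM). So were 5 of 6 readable tubular injury genes (1933 to 2602 CPM against 10880 to 17650 CPM). The injury genes were thus higher in the libraries labelled healthy than in those labelled ARF. The reason for this was not tested. All 4 readable of 10 macrophage and dendritic cell genes and both readable neutrophil genes were lower (19.4 to 25.2 against 46.4 to 83.3 CPM, and 2.95 to 6.46 against 50.1 to 165.5 CPM). Of 29 genes of dividing cells 9 were readable, 7 were tested and 1, Rrm1, was called, and the sum was 119.5 to 155.6 against 100.4 to 132.1 CPM. Of 4 readable endothelial genes 3 were lower (107 to 115 against 176 to 313 CPM), as were both tested erythroid genes (26.9 to 75.9 against 175 to 824 CPM) and both tested lymphocyte genes (7.29 to 9.60 against 15.7 to 38.7 CPM). Lists that went both ways were the distal convoluted tubule (1 of 3 higher, 2 lower), the loop of Henle (1 of 3 higher, 1 lower), podocytes (1 of 2 higher, 1 lower) and stroma (1 of 8 higher, 3 lower). Of 2 tested nephron progenitor genes 1, Wnt4, was higher. Among readable genes only Ms4a1 of the lymphocyte list and Hbb-bt of the erythroid list were at 0 in a whole group. Their part in the changes of the members was not tested. In bulk kidney RNA, fewer cells of a type and less RNA per cell cannot be told apart.

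**Figure D2:**
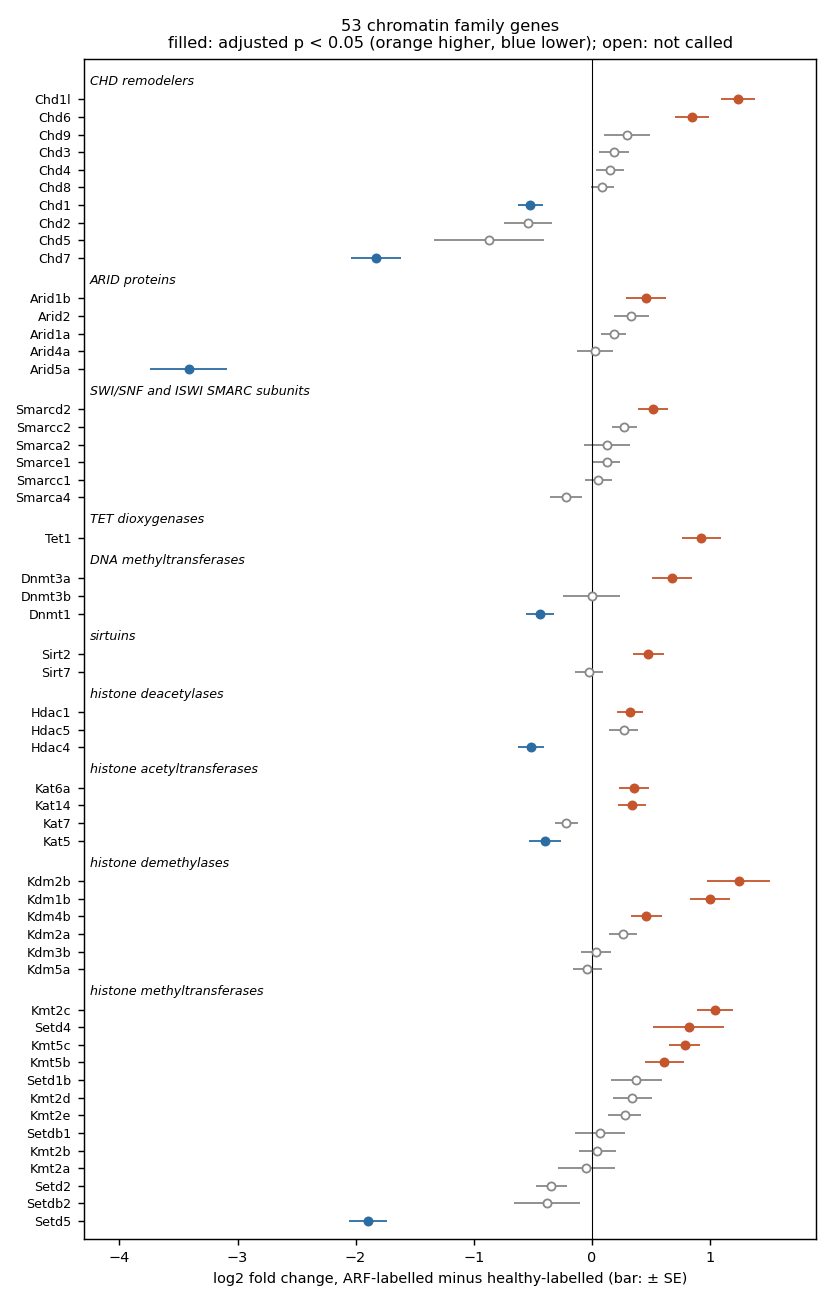
Log2 fold change (x axis, ARF-labelled minus healthy-labelled, bars ± SE from the test over 3 libraries a group) of each of the 53 members (y axis), grouped by role. Filled orange points are the 17 called higher, filled blue points the 7 called lower and open grey points the 29 not called. Arid5a, Setd5 and Chd7 lie far to the left of the rest.

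Among the histone methyltransferases, 4 of 13 rose (30.8%) and Setd5 fell (7.69%), against 25.1% and 24.9% of all genes. The share called was 38.5%, against 50% of all genes. Setd5 (chromosome 6, 113077365 to 113153435, GRCm38) encodes a SET-domain protein that associates with histone deacetylase complexes and is required for brain and heart development. It stood at 689.6, 971 and 962 CPM in the healthy-labelled libraries and at 237, 213 and 253 CPM in the ARF-labelled libraries. Each ARF-labelled library was lower than the lowest healthy-labelled library, and the fall was 3.73-fold (log2 fold change -1.90, SE 0.16, adjusted p = 4.80e-05). Setd5 was counted over 694 exon bases in a row of 18347 bases, nearly all within the gene, so reads from its introns can be included.

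Kmt2c (chromosome 5, 25271798 to 25498783), which encodes MLL3, a methyltransferase of histone H3 at enhancers, stood at 103, 122 and 116 CPM in the healthy-labelled libraries. In the ARF-labelled libraries it was at 287, 199 and 216 CPM, with no overlap (log2 fold change 1.04, SE 0.15, adjusted p = 0.000751). ARF-labelled replicate 1 was the highest of the 3. The enzymes Kmt5b and Kmt5c, which place the di- and trimethyl mark on histone H4 of compacted chromatin, rose together. Kmt5c stood at 26.4, 29.8 and 30.8 CPM against 44.6, 51.0 and 53.6 CPM (log2 fold change 0.78, SE 0.13, adjusted p = 0.00150). Kmt5b stood at 12.3, 14.2 and 12.03 CPM against 18.7, 19.3 and 20.6 CPM (log2 fold change 0.61, SE 0.16, adjusted p = 0.0135). Groups did not overlap for either gene, but the call of Kmt5b was lost without healthy-labelled replicate 3 (adjusted p = 0.0542). Setd4, a SET-domain gene, was called higher at 2.18 to 2.93 against 4.21 to 5.38 CPM (log2 fold change 0.82, SE 0.30, adjusted p = 0.0498). Its rows also lie on exons of Cbr1 and of an antisense gene, and its call was lost in every fit that left out a library (adjusted p 0.0810 to 0.145).

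The other 8 histone methyltransferases were not called. They include the closest relatives of Kmt2c: Kmt2d, the other enhancer methyltransferase, stood at 0.34 on the log2 scale (SE 0.17, adjusted p = 0.118, and 0.0437 without ARF-labelled replicate 2), Kmt2b at 0.05 and Kmt2a at -0.05. Kmt2a ranged from 278 to 381 CPM in the healthy-labelled and from 233 to 459 CPM in the ARF-labelled libraries, so the spread within a group was wider than the difference. Setd2, which trimethylates histone H3 along transcribed genes, had a log2 fold change of -0.35 (SE 0.13, adjusted p = 0.0580) with no overlap. It was called lower when replicate 1 of the healthy-labelled group (adjusted p = 0.0446) or of the ARF-labelled group (adjusted p = 0.0384) was left out. Setdb1, which methylates histone H3 at silenced repeats, had 0.06, its relative Setdb2 -0.38, Setd1b 0.38 and Kmt2e 0.28 (adjusted p = 0.05 when healthy-labelled replicate 3 was left out).

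Of 6 histone demethylases, 3 rose and 0 fell, against 25.1% and 24.9% of all genes. Kdm2b, a CpG-binding demethylase that brings a Polycomb complex to CpG islands, was read through 177 exon bases and few counts. It had 14, 8 and 10 counts in the healthy-labelled and 36, 40 and 46 in the ARF-labelled libraries, or 2.64 to 2.93 against 6.17 to 6.94 CPM. The groups did not overlap (log2 fold change 1.24, SE 0.26, adjusted p = 0.00485). Kdm1b, which encodes the flavin-dependent demethylase LSD2, stood at 28.8, 33.1 and 29.6 CPM against 57.6, 74.5 and 50.3 CPM (log2 fold change 1.00, SE 0.17, adjusted p = 0.00147). Its row has 862 of 8214 bases within Kdm1b and also lies on exons of 2010001K21Rik and a small nuclear RNA gene, so the reading is uncertain. Kdm4b, a demethylase of trimethylated histone H3, stood at 27.9, 30.5 and 26.4 CPM against 36.3, 37.7 and 42.5 CPM (log2 fold change 0.46, SE 0.13, adjusted p = 0.0173). The groups were apart, but leaving out replicate 3 of either group lost the call (0.0647 for the healthy-labelled and 0.0599 for the ARF-labelled library). Kdm2a (0.26, adjusted p = 0.0874), Kdm3b (0.03) and Kdm5a (-0.04) were not called. Kdm5a, which removes the trimethyl mark of active promoters, ranged from 205 to 218 CPM in the healthy-labelled and from 173 to 232 CPM in the ARF-labelled libraries, and its row also lies on exons of Ccdc77.

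Changes of the acetylation enzymes were small. Among 4 acetyltransferases, Kat6a (MOZ) and Kat14, a subunit of the ATAC coactivator complex, were called higher and Kat5 (Tip60), which also acts in DNA repair, lower. Over all genes 25.1% were higher and 24.9% lower. Kat6a stood at 44.3, 55.3 and 44.9 CPM against 61.9, 62.3 and 59.8 CPM (log2 fold change 0.35, SE 0.13, adjusted p = 0.0464). Kat14 stood at 55.0, 61.4 and 61.0 CPM against 72.7, 71.5 and 79.9 CPM (log2 fold change 0.34, SE 0.12, adjusted p = 0.0383). Kat5 stood at 68.6, 56.4 and 53.1 CPM against 46.3, 47.6 and 41.6 CPM (log2 fold change -0.40, SE 0.14, adjusted p = 0.0392). These groups did not overlap, yet all 3 calls lie close to the threshold. That of Kat14 was lost whichever library was left out (adjusted p 0.0532 to 0.103). That of Kat6a was lost without any library but healthy-labelled replicate 2 (0.0742 to 0.169), and that of Kat5 without healthy-labelled replicate 1 or any ARF-labelled replicate (0.0693 to 0.129). The call of Kat5 was also lost with library totals (adjusted p = 0.182) and with no filter on low counts (adjusted p = 0.0868). Its only row, named Ovol1, has 743 of 3488 bases within Kat5, so the reading is uncertain. Kat7 (HBO1), at -0.22 on the log2 scale, was not called (adjusted p = 0.103).

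Of the deacetylases, Hdac4 fell. It belongs to the class that shuttles between nucleus and cytoplasm, and stood at 171, 180.0 and 183 CPM in the healthy-labelled and 139.5, 113 and 121 CPM in the ARF-labelled libraries. The groups did not overlap (log2 fold change -0.51, SE 0.11, adjusted p = 0.00485). The row of its own name has 4985 of 15813 bases within Hdac4 and also lies on an exon of Gm37600, while its other row lies wholly within the gene. Hdac5, of the same class, stood at 299 to 374 against 385 to 446 CPM, with a log2 fold change of 0.27 that was not called (SE 0.13, adjusted p = 0.107). Hdac1, the nuclear deacetylase of the NuRD, SIN3 and CoREST complexes, was called higher at 96.5, 91.6 and 85.7 against 106, 113 and 124 CPM (log2 fold change 0.32, SE 0.11, adjusted p = 0.0340). Leaving out replicate 2 or 3 of either group lost this call (adjusted p 0.0702 to 0.149). The sirtuins use NAD. Sirt2, mainly a cytoplasmic deacetylase of tubulin, stood at 34.5, 39.6 and 34.0 CPM against 45.6, 55.6 and 49.1 CPM (log2 fold change 0.48, SE 0.13, adjusted p = 0.0159), and was not called without healthy-labelled replicate 3 (adjusted p = 0.0633). Sirt7, a nucleolar sirtuin, stood at -0.02 on the log2 scale (adjusted p = 0.882).

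The enzymes of DNA methylation went in different directions. Dnmt3a (chromosome 12, 3806007 to 3914443), a de novo methyltransferase, stood at 65.0, 82.2 and 83.3 CPM in the healthy-labelled libraries and at 149.7, 101 and 117 CPM in the ARF-labelled libraries. The groups did not overlap (log2 fold change 0.67, SE 0.17, adjusted p = 0.0106). Reads of Dnmt3a were counted in the row named Dnmt3aos. Its 1385 bases all lie on exons of Dnmt3a and on no exon of another annotated gene. Counting was without strand, so reads of any antisense transcript cannot be told apart. Dnmt1 (chromosome 9, 20907209 to 20959888), which copies methylation onto new DNA strands, stood at 137, 128 and 117 CPM against 89.8, 106 and 85.5 CPM (log2 fold change -0.44, SE 0.12, adjusted p = 0.0144). It fell without overlap, but the call was lost when ARF-labelled replicate 1 (adjusted p = 0.0579) or 3 (adjusted p = 0.0611) was left out, and with scaling by library totals (adjusted p = 0.0717). Dnmt3b, the other de novo enzyme, was at 11.1 to 18.9 CPM against 12.6 to 17.2 CPM (log2 fold change -0.00, SE 0.24, adjusted p = 0.995). Tet1, which oxidises methylcytosine, stood at 19.8, 21.1 and 15.8 CPM against 40.6, 31.1 and 35.9 CPM, and every ARF-labelled library was above every healthy-labelled one (log2 fold change 0.92, SE 0.16, adjusted p = 0.00201). The row that also lies on an exon of Ccar1 was left out in a further fit, chosen after seeing the data, in which Tet1 stood at 1.38 on the log2 scale (adjusted p = 0.00330).

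**Figure D3:**
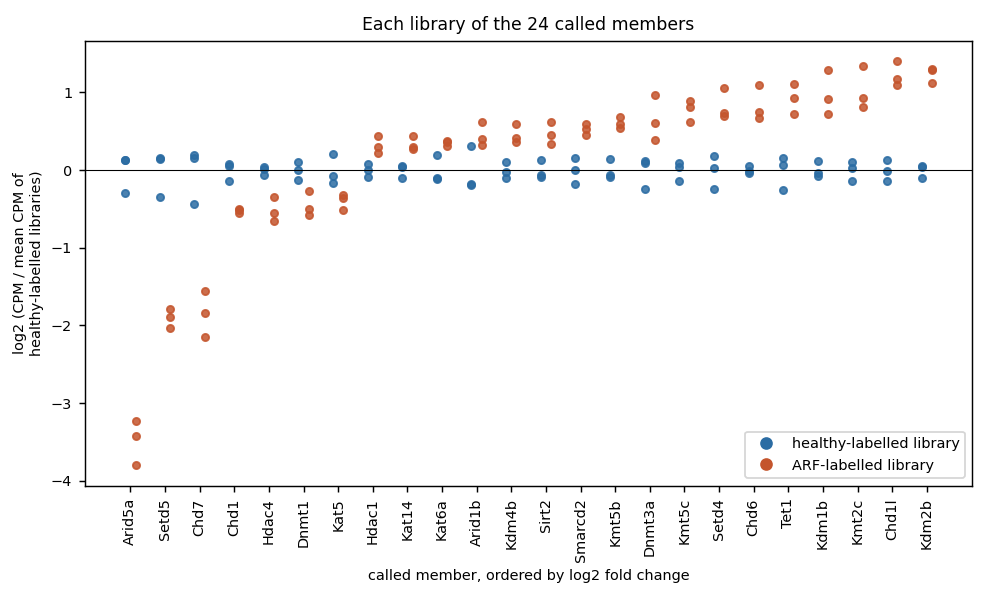
Each point is 1 library of 1 called member (x axis, ordered by log2 fold change), as log2 of its CPM over the mean CPM of the 3 healthy-labelled libraries (y axis). Blue and orange points do not overlap for any of the 24 members, but the gap is narrow for Arid1b, Kat6a, Hdac1, Dnmt1 and Kat5. The members were called by a test on these same libraries, so the separation is not separate evidence. Of all genes tested, called or not, 60.2% did not overlap.

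Of 6 SMARC members, Smarcd2, an accessory subunit, rose from 68.1, 54.2 and 61.3 CPM to 87.9, 92.4 and 83.4 CPM (log2 fold change 0.52, SE 0.12, adjusted p = 0.00859), with no overlap. Neither ATPase was called: Smarca4 (BRG1) stood at 463 to 607 against 413 to 465 CPM (log2 fold change -0.22, SE 0.13, adjusted p = 0.206) and Smarca2 (BRM) at 93.8 to 158 against 123 to 162 CPM (0.13, SE 0.19, adjusted p = 0.608). The scaffold subunits Smarcc1 (0.06) and Smarcc2 (0.27, adjusted p = 0.0563) and the DNA-binding subunit Smarce1 (0.13) were not called either. In all, 1 of the 6 SMARC members was called, against 50% of all genes.

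Of the ARID proteins, Arid1a, Arid1b and Arid2 are the DNA-binding subunits that define SWI/SNF subtypes. Arid1b was called higher at 45.4, 64.0 and 44.9 against 79.2, 67.7 and 64.3 CPM (log2 fold change 0.46, SE 0.17, adjusted p = 0.0488). Healthy-labelled replicate 2 and ARF-labelled replicate 3 were almost equal. The call was lost without any library but healthy-labelled replicate 2 (adjusted p 0.0521 to 0.189), and Arid1a (0.18) and Arid2 (0.33, adjusted p = 0.0947) were not called. Arid4a, a partner of the SIN3 deacetylase complex, had a log2 fold change of 0.02. Arid5a (chromosome 1, 36307733 to 36324029), better known as an RNA-binding protein that stabilises interleukin-6 mRNA, had the largest change of all members. It had 42, 29 and 36 counts in the healthy-labelled and 6, 4 and 6 in the ARF-labelled libraries, or 7.92, 10.5 and 10.6 against 1.03, 0.694 and 0.902 CPM. This is a fall of 10.7-fold (log2 fold change -3.41, SE 0.32, adjusted p = 7.84e-05). The counts of Arid5a came from the row named Neurl3, over 37 exon bases of the basic annotation, none of them coding. Of the 3217 bases of that row 1260 lie within Arid5a, so the reading is uncertain.

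Of 10 CHD remodelers, Chd1l and Chd6 rose, and Chd7 and Chd1 fell (20% in each direction, against 25.1% higher and 24.9% lower of all genes). Chd7 (chromosome 4, 8690406 to 8867659), the remodeler mutated in CHARGE syndrome and needed in neural crest, was the only member counted over all of its exon bases, in the row of its own name. It stood at 542, 838 and 820.0 CPM in the healthy-labelled and 250.1, 165 and 205 CPM in the ARF-labelled libraries. The fall was 3.55-fold with no overlap, although healthy-labelled replicate 1 was well under the other 2 (log2 fold change -1.83, SE 0.21, adjusted p = 0.000218). Chd1, which binds the methyl mark of active promoters, fell from 242, 275 and 280.2 CPM to 188, 187 and 182 CPM (log2 fold change -0.52, SE 0.10, adjusted p = 0.00342). Its close relative Chd2 had a similar estimate, at 94.8 to 135 against 66.1 to 105 CPM, but the groups overlapped and it was not called (log2 fold change -0.54, SE 0.20, adjusted p = 0.0504). Chd2 was called without healthy-labelled replicate 1 (adjusted p = 0.0226) or without ARF-labelled replicate 1 (adjusted p = 0.0163).

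Chd1l (chromosome 3, 97560742 to 97610203), a remodeler recruited to DNA breaks by poly-ADP-ribose, rose from 19.2, 21.1 and 23.2 CPM to 45.4, 56.1 and 47.8 CPM (log2 fold change 1.24, SE 0.14, adjusted p = 0.000211). The groups lay far apart, a 2.36-fold rise. Chd6 rose from 32.4, 34.5 and 33.2 CPM to 71.1, 52.95 and 55.9 CPM (log2 fold change 0.85, SE 0.15, adjusted p = 0.00163). The NuRD motors Chd3 (0.18) and Chd4 (0.15, adjusted p = 0.314) were not called, and neither were Chd8 (0.09), Chd9 (0.30) or Chd5. Chd5, which is best known from brain and testis, had few counts (15, 9 and 10 against 5, 7 and 18; log2 fold change -0.87, SE 0.47, adjusted p = 0.151). Its groups did not overlap in CPM, and it was called lower without ARF-labelled replicate 3 (adjusted p = 0.0332).

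Many members were read through 2 or more separate rows, each counted on its own. A row can also cover bases outside exons. The 2 rows of Chd6, for example, hold 105 exon bases of 2172 and 120 of 1805. Reads from introns can be included, so rows that match are not readings of exons alone. For 24 members at least 2 rows had a mean of 10 counts or more. The rows of 19 of them gave a log2 ratio of the same sign, 11 of the 12 called members and 8 of the 12 not called. Members were called on counts summed over these rows, so a shared sign among called members is partly built in. It is not separate evidence, and the same share for other genes was not computed. The largest and smallest row ratio of a member differed by a median of 0.17. The 4 rows of Chd1 gave log2 ratios of -0.75 to -0.47, the 3 rows of Dnmt1 -0.46 to -0.39 and the 2 rows of Hdac4 -0.52 and -0.50. Chd1l gave 1.17 and 1.32, Chd6 0.75 and 0.93, and both rows of Arid1b gave 0.45. The Fmo5 row of Chd1l has 32.7% of its bases within Chd1l, and the Arid1b row of Arid1b has 31.8% within Arid1b. The exception among called members was Kdm4b, with 0.51 and 0.56 in 2 rows and -0.01 in the third, which had 41 and 67 counts. Chd8 differed most, with 0.05 over 1186 exon bases and 0.93 over 103. Of the 99 rows behind the members, 14 also overlapped an exon of another gene of any type in the full annotation, and they belonged to 13 members. Without these 14 rows 48 members were tested, of which 15 were higher and 7 lower. In the main fit 25.1% of all genes were higher and 24.9% lower. Of 96 rows with counts, 17 had under 50% of their bases within the member, and they belonged to 17 members, 12 of them called. These 12 were Arid1b, Arid5a, Chd1l, Hdac1, Hdac4, Kat14, Kat5, Kdm1b, Kdm4b, Kmt5b, Setd4 and Tet1. For Arid5a, Kat5 and Kdm1b no other row was counted.

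**Figure D4:**
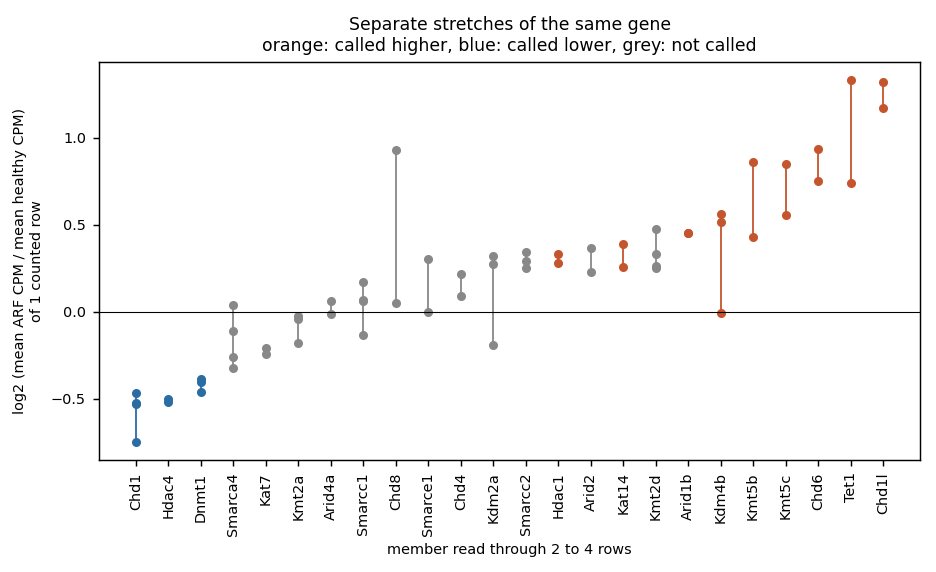
Each point is the log2 ratio of mean CPM, ARF-labelled over healthy-labelled, of 1 counted row (y axis) for the 24 members read through 2 to 4 rows (x axis), with a line joining the rows of a member. The rows of Chd1, Hdac4 and Dnmt1 all lie below 0 and those of Chd1l, Tet1 and Chd6 all above it, while Chd8 and Kdm4b spread widely. Members were called on counts summed over their rows, so a shared sign is not separate evidence.

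Closely related members were compared through the ratio of their counts within each library, which does not depend on scaling between libraries. Of 14 pairs, 5 had ratios that did not overlap between groups. The same share among other pairs of genes was not computed, so the count cannot be called particular to these pairs. Of single genes tested, 60.2% did not overlap in CPM. The exact two-sided permutation test on 3 against 3 libraries cannot give a p below 0.10, and all 5 had p = 0.10, or 0.28 after Benjamini-Hochberg adjustment over the 14 pairs. The log2 ratio of Chd7 to Chd8, motors of the same CHD subgroup, was 1.69, 2.30 and 2.24 in the healthy-labelled and 0.35, -0.06 and 0.22 in the ARF-labelled libraries, a difference of -1.91 between means. Kmt2c to Kmt2d was -0.86, -1.04 and -0.82 against -0.15, -0.15 and -0.34 (difference 0.69), so the ratio was higher in every ARF-labelled library than in any healthy-labelled one.

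Hdac4 to Hdac5 was -0.81, -1.06 and -0.94 against -1.46, -1.82 and -1.88 (difference -0.79). Kdm2a to Kdm2b had a difference of -0.92 and Chd6 to Chd9 of 0.53. That of Kdm2a to Kdm2b was -0.57 when 5 rather than 0.5 was added to each count, and Kdm2b had few counts. The ratio of Dnmt3a to Dnmt3b overlapped between groups (difference 0.62, exact p = 0.30), as did Smarca2 to Smarca4 (0.37, exact p = 0.40), Arid1a to Arid1b (-0.28, exact p = 0.20) and Smarcc1 to Smarcc2 (-0.22, exact p = 0.20). The differences of Chd1 to Chd2 and Chd3 to Chd4 were 0.04 each, both with an exact p of 1. Kmt5b to Kmt5c differed by -0.17 (exact p = 0.20), Kmt2a to Kmt2b by -0.15 (exact p = 0.50) and Setdb1 to Setdb2 by 0.47 (exact p = 0.40).

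**Figure D5:**
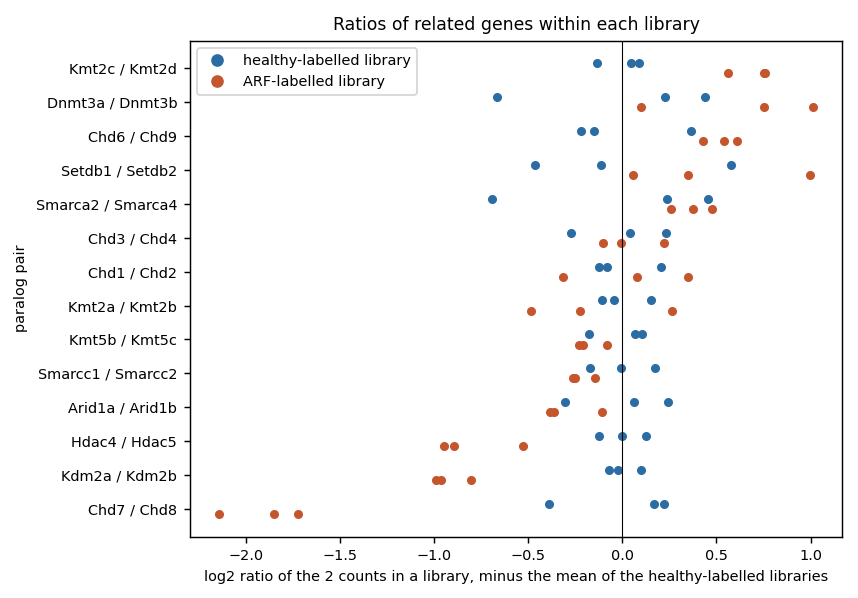
For each of 14 pairs (y axis), the log2 ratio of the 2 genes' counts in a library is drawn relative to the mean of the healthy-labelled libraries (x axis), 1 point per library. The ARF-labelled points lie apart from the healthy-labelled ones for Chd7 / Chd8, Kdm2a / Kdm2b, Hdac4 / Hdac5, Chd6 / Chd9 and Kmt2c / Kmt2d, and overlap them for the other 9 pairs.

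Chromatin genes outside the name rule were read from a list of 163, of which 74 were tested. Of these 21 were higher and 15 lower, or 48.6% called against 50% of all genes, with a median log2 fold change of 0.03. With scaling by library totals 26 were higher (35.1%, against 33.3% of all genes) and 6 lower (8.11%, against 19.3%). Without replicate 2 of the ARF-labelled group 9 were lower (12.2%, against 20.7% of all genes). Without its replicate 3 it was also 9 (12.2%, against 22%). The counts of the small lists that follow stand beside 25.1% of all genes higher and 24.9% lower. Of 12 Polycomb genes 4 rose and 1 fell. Cbx7, a Polycomb reader of methylated histone H3, went from 18.2 ± 2.47 to 44.9 ± 4.10 CPM (SD, n = 3 libraries a group; log2 fold change 1.29, edgeR adjusted p = 0.000215), and Cbx2 had a log2 fold change of 1.21. Of 11 other histone methyltransferases 3 rose and 3 fell, led by Ehmt2 (G9a), which dimethylates histone H3 at silenced genes (0.94, SE 0.12), and by Dot1l, which methylates the histone H3 core in transcribed genes (-2.17, SE 0.24). Dot1l went from 36.8 ± 6.42 to 8.08 ± 2.61 CPM (SD, n = 3; edgeR adjusted p = 0.000181).

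The partners of the enzymes gave mixed counts. Of 14 deacetylase corepressor genes 3 rose and 4 fell, among them the NuRD subunits Mta3 (1.10), Mbd2 (-0.83) and Gatad2a (-0.72). All 3 SWI/SNF subunits outside the name rule that were tested rose, including Bicra (0.52) and Bicral (0.54). Of 6 genes working with the COMPASS methyltransferases 3 fell and 0 rose, so that the share called was 50%, as over all genes, with Psip1 at -1.06 (SE 0.32) and Ncoa6 at -0.51 (SE 0.13). Of 13 acetyltransferase partners 5 rose and 1, Epc1, fell (-0.73, SE 0.12). Among 14 other remodelers Atrx (1.01) and Shprh (0.81) rose and Ino80 (-0.71) and Rad54l2 (-0.51) fell. Uhrf1, which guides Dnmt1 to newly copied DNA, fell from 14.3 ± 1.88 to 8.66 ± 1.82 CPM (SD, n = 3; log2 fold change -0.73, edgeR adjusted p = 0.0268). It was the only gene tested of 11 DNA methylation readers and partners. Whether its change is linked to that of Dnmt1 was not tested.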

How the data were processed

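Counts of RNA fragments per gene row were deposited for 6 mouse kidney libraries, each from 1 microgram of total RNA (TruSeq), per the labels' protocols. Per the file headers, the authors ran featureCounts 2.0.1 on exons, grouped by gene name, for pairs whose 2 ends both aligned and were not chimeric, without strand. Bowtie 0.12.2 and mm9 appear in the submitters' processing notes. Whether they made these counts was not given in the sources used here. Totals were 2873370 to 6191479 counts per library.

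Rows were named by position: a row went to the gene of GENCODE M21 basic (GRCm38, protein-coding and long non-coding) with 0.9 or more of the exon bases it overlapped, and no fewer than 25 (bedtools 2.31.1, Python 3.11.15). This placed 12401 of 53546 rows and 63.0% of the counts. The test was edgeR 4.0.16 (R 4.3.3), with TMM, filterByExpr and quasi-likelihood fits on group alone, with adjusted p over all 5246 genes. SE is the absolute log2 fold change divided by the square root of F. The script was first tested on simulated data. Paralog ratios were log2 of counts plus 0.5. Alternatives were DESeq2 1.42.0 and its size factors, library totals alone, no filter or a mean of at least 50 counts, the replicate number as a block, other limits on the exon bases of a row or gene, and each library left out. The series table, which repeats the counts, was not used. Per role list, the called members with the largest changes, up to 3 per direction, are given in full (Kmt5b was added after its values were seen), as are up to 2 genes per direction in the other chromatin lists. The members, lists and tests were chosen with earlier results of these data known.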

Additional observations from a re-analysis of the deposited data

How the results depend on the processing

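Of the 24 called members, 14 were called in every alternative that tested them: Kdm2b, Chd1l, Kmt2c, Kdm1b, Tet1, Chd6, Kmt5c, Dnmt3a and Smarcd2 as higher, and Arid5a, Setd5, Chd7, Chd1 and Hdac4 as lower. Of these 14, Arid5a was not tested with a minimum of 100 exon bases or with a mean of at least 50 counts. Kdm2b was not tested with a mean of at least 50 counts, nor Kdm1b without rows on another gene. Those alternatives cannot show whether the calls of these genes hold. The same share over all genes is not given here. No called member changed sign. With scaling by library totals, 27 members were higher (50.9%, against 33.3% of all genes). Of the other chromatin genes 6 were lower (8.11%, against 19.3% of all genes). The members' median log2 fold change was 0.36, against 0.19 over all genes. Leaving out 1 library gave 10 to 14 members higher (18.9 to 26.4%, against 18.4 to 22% of all genes). It gave 6 to 8 members lower (11.3 to 15.1%, against 20.7 to 24.4%). Of the other chromatin genes 9 to 14 were lower (12.2 to 18.9%). Between 6 and 8 paralog pairs were without overlap (8 without healthy-labelled replicate 2). Leaving out a library cannot add overlap, so this count could only stay or rise. Members near 0 changed sign, none of them called. With library totals Dnmt3b was at 0.17, Kdm5a at 0.14, Kmt2a at 0.13 and Sirt7 at 0.15. With no filter on low counts Dnmt3b was at 0.0403, Kdm5a at 0.007 and Sirt7 at 0.02, and with a mean of at least 50 counts Arid4a was at -0.0025. Leaving out 1 library gave -0.0753 to 0.12 for Arid4a, -0.18 to 0.27 for Dnmt3b, -0.0669 to 0.20 for Kmt2b, -0.0848 to 0.25 for Setdb1, -0.37 to 0.15 for Kmt2a, -0.0785 to 0.28 for Smarca2, -0.0059 to 0.12 for Smarcc1, -0.0356 to 0.14 for Kdm3b, -0.10 to 0.0195 for Sirt7 and -0.13 to 0.0804 for Kdm5a. The cause of these shifts was not tested.

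With the replicate number as a block, 12 members were higher (22.6%, against 21.6% of all genes) and 6 lower (11.3%, against 22%). In that fit Dnmt3b was at 0.0259. Same-numbered libraries did not deviate together (correlations -0.07, -0.22 and -0.29), while differently numbered ones gave -0.06 to 0.25. With 3 libraries a group, these values cannot show whether the numbers pair the samples. Genes counted over few exon bases or with few counts, Arid5a, Kdm2b, Setd4 and Chd5 above all, are limited by depth.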
